A study of Homo sapiens with 9 samples.

Results

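The comparison described here sets 3 arrays of NCI-H716 cells carrying a control vector against 3 arrays of untreated NCI-H716 cells, chosen by the treatment given in the labels, from 9 arrays in all. NCI-H716 is an established human colorectal cancer line with enteroendocrine features. The control vector cells are called mock in the sample titles, and the untreated cells are called control there. The 3 remaining arrays are labelled as carrying a vector for mutant YAP, a transcriptional coactivator that the Hippo pathway holds back, and were used for the estimate of spread and for side-by-side values. The labels give neither the backbone of the vectors, nor how they were brought into the cells, nor whether the cells were selected or cloned, nor the time after transfer. They name no further agent, and all 9 arrays share the cell line and the RNA and labelling kits. RNA levels were read on an Illumina bead array of 47230 probes.

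A control vector carries the same backbone as a test vector without its insert, and it stands in for what DNA transfer, selection and culture do to a cell. Cells that take up foreign DNA can sense it in the cytosol through a pathway that includes the adaptor STING1. The interferons made in response raise HLA class I, the molecules that show peptides of the cell's own proteins to T cells. ID proteins are inhibitory partners of basic helix-loop-helix transcription factors and are classical targets of bone morphogenetic protein (BMP) signalling through SMAD proteins. In the gut, BMP signals and helix-loop-helix factors take part in the choice between absorptive, goblet and enteroendocrine fates, and ABCA1 moves cholesterol out of cells under control of the liver X receptors (LXR).

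Median raw signals were 128.5, 119.7 and 104.2 in control vector replicates 1 to 3 and between 125.2 and 128.8 in the untreated arrays, and the share of probes exceeding their array's background was 38.9% to 41.2%. Control vector replicate 3 was thus the dimmest of the 6 arrays. On the first principal component the control vector arrays lay at 1.02, 1.85 and 9.31 and the untreated arrays between -15.35 and -13.34, so the groups did not overlap there. The labels do not say that replicates came from separate cultures, so p-values measure the spread between these arrays only, which may be technical, and 3 arrays a group limit the precision. The vector itself has no probe among those named here, so the label of the control vector arrays could not be checked against its product. YAP1 had log2 signals of 7.85, 7.79 and 7.94 in control vector cells and 8.29, 8.17 and 8.01 in untreated cells, a difference of -0.30 ± 0.11 (SE) that did not pass (adjusted p = 0.163). On the arrays labelled YAP mutant vector, YAP1 had 8.06, 7.82 and 7.91, a difference of 0.07 ± 0.11 from control vector cells (adjusted p = 0.964), so this probe showed no raised YAP1 there and does not bear out that label. Whether the probe reads the transcript of the vector is not known here. Most defining markers of the line were above background in both groups. Of 12, 9 lay above it on all 3 arrays of each group, among them the epithelial adhesion protein EPCAM and the hormone gene GCG. The keratin gene KRT19 did so on 1 array of each group, the enteroendocrine factor NEUROD1 on 0 control vector arrays and 2 untreated arrays, and the brush border gene VIL1 was not tested because it was below background. None of the 11 tested passed, and their mean log2 signal ran from 9.60 to 9.72 in control vector cells and from 9.69 to 9.71 in untreated cells.

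Carrying the control vector went with modest differences in a small share of genes. Of 15589 genes tested, 340 (2.18%) were called at an adjusted p under 0.05 in limma's moderated test with Benjamini-Hochberg adjustment. The calls were 237 higher (1.52%) and 103 lower (0.661%) in control vector cells. Only 12 of them reached 2-fold, 7 higher and 5 lower, and 105 reached 1.5-fold. The 12 were ABCA1, BEX2, FOS, HLA-B, SPON1, FCGBP and GUCA2A, which were higher, and ID3, ID1, CPNE4, WDR25 and CYP1B1, which were lower. Over all genes the median log2 difference was -0.0029, and the 5th and 95th percentiles were -0.253 and 0.269. The shares called over all genes, 1.52% higher and 0.661% lower, are the reference for each list count below. The lists and their members were chosen with earlier results of these data known.

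How many genes passed depended on single arrays and on the scaling. The count was 157 without control vector replicate 3, 182 without untreated replicate 1, 184 without untreated replicate 2 and 198 without untreated replicate 3. When arrays were brought only to a common median, without quantile normalization, 47 genes passed, 28 higher and 19 lower, which is 59.6% higher against 69.7% as reported. Genes described below are therefore given with the settings that ended their call. Calls near the threshold ended when any of several single arrays was left out, and for them the number of the 19 alternatives that ended the call and the highest adjusted p with an array left out are given. In bulk RNA, fewer cells of a kind and less RNA per cell cannot be told apart, and this applies to every difference below.

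**Figure D1:**
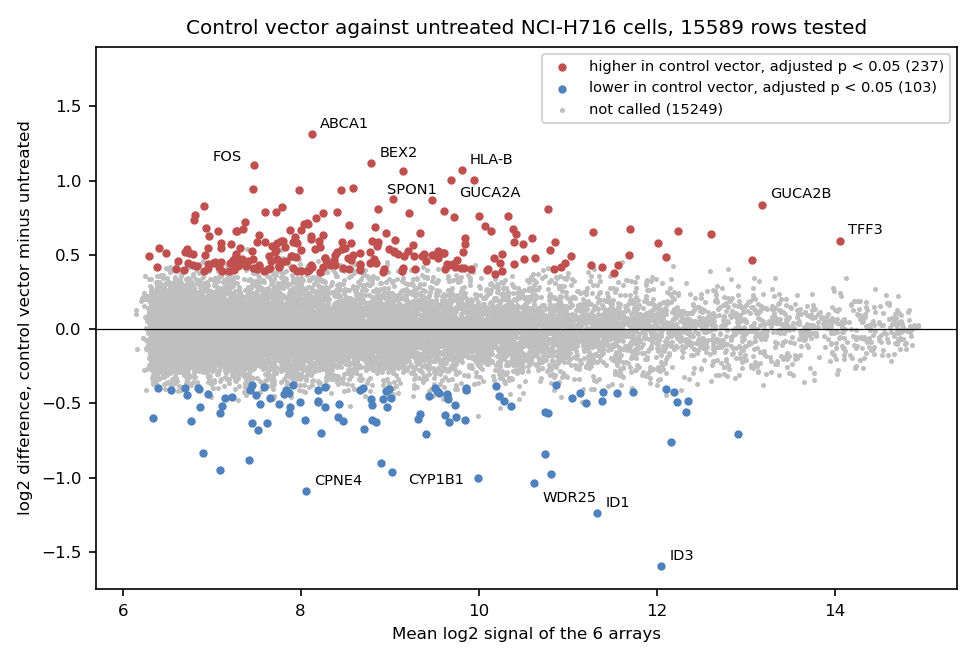
Log2 difference, control vector minus untreated, against the mean log2 signal of the 6 arrays, 1 point per gene tested. The 237 genes higher in control vector cells are red and the 103 lower are blue. ABCA1 and ID3 lie at the extremes, at 1.31 and -1.59, while most genes lie close to 0.

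**Figure D2:**
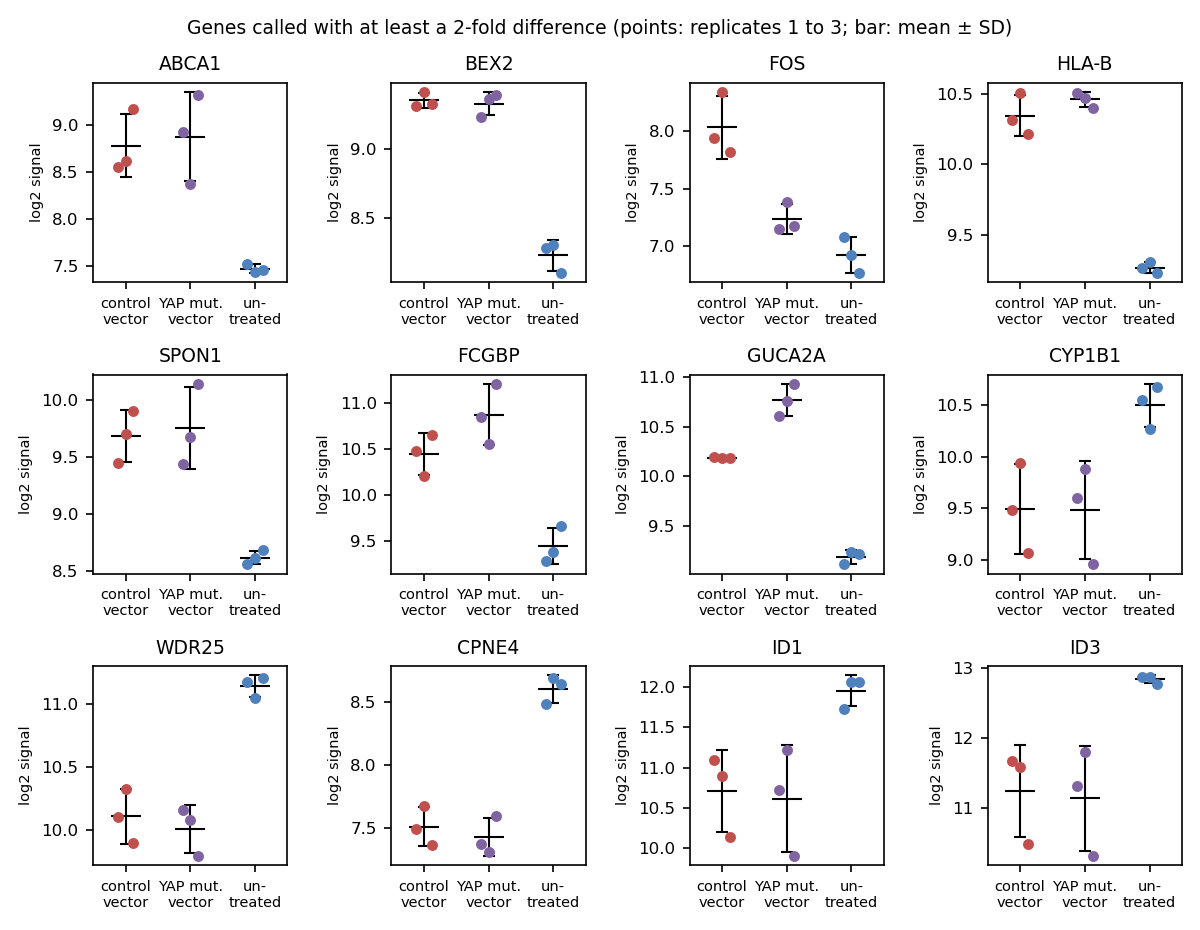
Log2 signal on each array for the 12 genes called with at least a 2-fold difference, in control vector cells, cells labelled YAP mutant vector and untreated cells (points are arrays, the bar is the mean and the whiskers the SD, n = 3). In every panel the 3 control vector arrays lie apart from the 3 untreated arrays, as they do for 339 of the 340 called genes. Control vector replicate 3 is the rightmost red point and lies farthest from the untreated arrays for ID3, ID1 and ABCA1.

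Heavy chain genes of HLA class I rose. The promoters of HLA-B, which was called, of HLA-F, which was also called, and of HLA-C, which was not, are shown for comparison. Each window runs from 250 bases before to 50 bases after the gene's start in RefSeq (GRCh38.p14), 5′ to 3′ on the gene's strand. Capitals mark the kappaB site of class I promoters (GGGGA followed directly by TTCCC), the core of the interferon-stimulated response element (GAAA, any 2 bases, then GAAA) and GGCGCC, a GC-rich SMAD element. Each was searched on both strands, and no matches overlapped.
HLA-B, chr6:31357130-31357429, minus strand: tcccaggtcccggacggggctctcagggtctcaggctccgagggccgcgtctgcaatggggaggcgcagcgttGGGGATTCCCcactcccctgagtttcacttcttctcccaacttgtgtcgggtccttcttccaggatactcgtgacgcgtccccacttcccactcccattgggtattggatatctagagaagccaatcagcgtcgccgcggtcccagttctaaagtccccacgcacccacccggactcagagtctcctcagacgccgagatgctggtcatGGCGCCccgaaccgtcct
HLA-F, chr6:29723184-29723483, plus strand: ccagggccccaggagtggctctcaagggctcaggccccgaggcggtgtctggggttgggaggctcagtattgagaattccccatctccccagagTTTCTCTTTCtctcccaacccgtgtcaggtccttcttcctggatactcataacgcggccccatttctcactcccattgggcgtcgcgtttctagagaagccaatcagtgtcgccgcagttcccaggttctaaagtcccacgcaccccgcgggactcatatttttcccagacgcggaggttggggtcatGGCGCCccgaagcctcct
HLA-C, chr6:31272043-31272342, minus strand: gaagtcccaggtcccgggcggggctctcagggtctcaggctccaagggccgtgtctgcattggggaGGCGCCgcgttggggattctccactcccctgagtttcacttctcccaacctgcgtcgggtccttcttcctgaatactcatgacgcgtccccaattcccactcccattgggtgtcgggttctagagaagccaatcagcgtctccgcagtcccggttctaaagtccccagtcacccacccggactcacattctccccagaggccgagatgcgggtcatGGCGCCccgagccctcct
The HLA-B window held 1 kappaB site and the HLA-F window 1 interferon element, read there on the opposite strand, and the HLA-C window held neither. All 3 held GGCGCC among the 50 bases after the start, which lie within the gene, and HLA-C held a further match before the start. Of 35116 promoter windows of 300 bases, 0.0769% held the kappaB site, 3.57% the interferon element and 19.2% GGCGCC. These matches describe letters only. The absence of a match in a window says nothing about binding.

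HLA-B, a classical class I heavy chain, had log2 signals of 10.31, 10.50 and 10.22 in control vector cells and 9.27, 9.31 and 9.24 in untreated cells. The groups were separated by more than the range within either of them, and HLA-B was 2.10-fold higher (log2 difference 1.07 ± 0.10, adjusted p = 3.08e-06). This call held under all 19 alternatives. HLA-F, a non-classical class I gene, had 9.79, 10.21 and 10.03 in control vector cells and 9.29, 9.07 and 9.27 in untreated cells, a difference of 0.80 ± 0.11 (adjusted p = 3.17e-04) that also held under all of them. Its other probe above background gave 0.46.

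HLA-G, best known from placenta, had 8.25, 8.06 and 8.29 in control vector cells and 7.57, 7.57 and 7.71 in untreated cells, a rise of 0.59 ± 0.11 (adjusted p = 0.00288; 0.196 at a common median). HLA-E, a ligand of natural killer cell receptors, had 9.84, 9.83 and 9.75 in control vector cells and 9.21, 9.43 and 9.19 in untreated cells, a rise of 0.53 ± 0.11 (adjusted p = 0.00816). The HLA-E call ended at a common median (0.458) and without untreated replicate 3 (0.053). Both genes were higher on every control vector array than on any untreated array. The groups lay apart in either direction for 18.7% of all genes and for 339 of the 340 called genes. This separation is thus no support beyond the calls. Class I genes are near-identical in sequence, and the probe sequences were not used here, so how far a probe of one gene also reads another is uncertain.

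HLA-C did not follow at its brightest probe, with 7.94, 7.81 and 7.60 in control vector cells and 7.72, 7.61 and 7.63 in untreated cells (0.13 ± 0.11, adjusted p = 0.66). The shared light chain B2M differed by 0.28 ± 0.11 (adjusted p = 0.226). TAP1, a subunit of the peptide transporter, passed narrowly at 0.41 ± 0.11 (adjusted p = 0.0484) and lost the call in 14 of the 19 alternatives (up to 0.227 without control vector replicate 3). The immunoproteasome subunits PSMB8 and PSMB9 differed by 0.37 and 0.34 (adjusted p = 0.115 and 0.329). In the list of class I and peptide loading genes, 6 of 20 tested members were called higher and 0 lower, beside 1.52% and 0.661% of all genes. The list had a median log2 difference of 0.238 and 17 members above 0. The count of 6 was 2 at a common median and 4 when probes were averaged. Of the class II and invariant chain genes, 3 of 11 were above background, and none passed, with differences from 0.005 to 0.109.

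**Figure D3:**
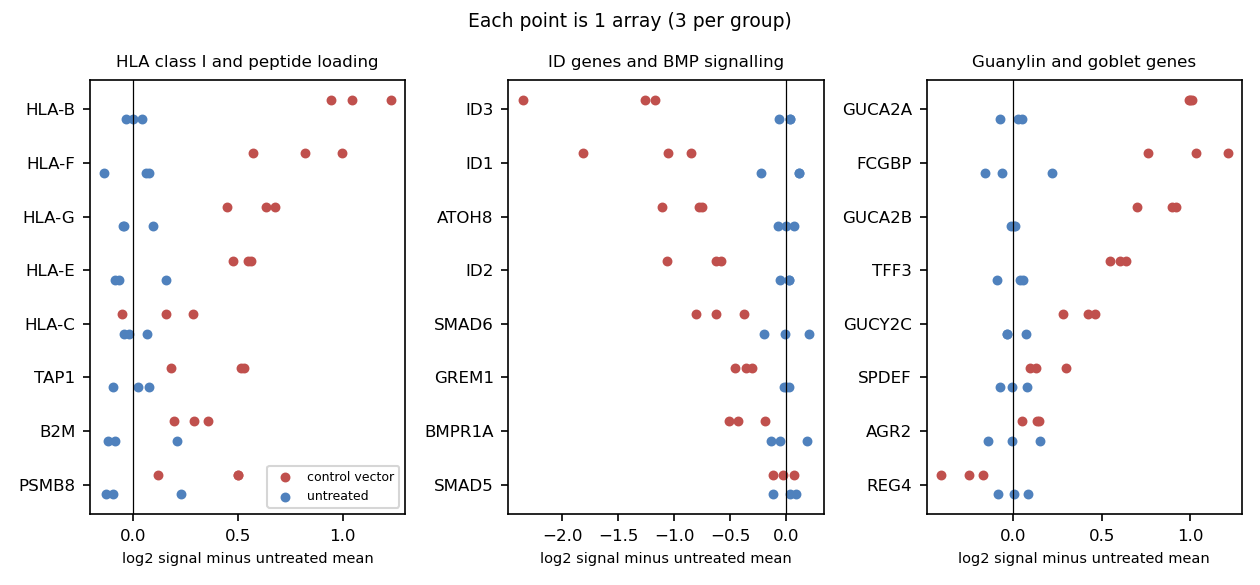
Log2 signal of each array minus the untreated mean for genes of 3 groups, in control vector cells (red) and untreated cells (blue), 3 arrays each. Every control vector array lies to the right of the untreated arrays for HLA-B, HLA-F, HLA-G and HLA-E and to the left for ID3, ID1, ATOH8, ID2 and SMAD6. The arrays of both groups overlap for HLA-C, SMAD5 and AGR2. Over all genes tested, the groups lie apart in either direction for 18.7%, and among the 340 called genes for 339.

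STING1, the adaptor of cytosolic DNA sensing, had 8.56, 8.51 and 8.64 in control vector cells and 8.02, 7.84 and 7.96 in untreated cells, a rise of 0.63 ± 0.10 (adjusted p = 0.00137; 0.0983 at a common median). It was the 1 call among 16 tested sensors and restriction factors, whose median was -0.057, and the RNA sensor IFIH1 differed by 0.30 (adjusted p = 0.20). Of 23 interferon-stimulated genes 2 were called higher (8.7%, against 1.52% of all genes) and 0 lower, with a median of 0.132 and 21 members above 0. IFI6, a mitochondrial survival protein induced by interferon, rose by 0.51 ± 0.11 (adjusted p = 0.00918). The classical response gene ISG15 differed by 0.08 (adjusted p = 0.81), and IFIT1, at -0.14 (adjusted p = 0.62), was 1 of 2 members below 0. IFI6 lost the call when control vector replicate 3 was left out (adjusted p = 0.0692), without untreated replicate 2 (0.0522), with probes averaged (0.0826) and at a common median (0.458), and its second probe gave 0.15. LGALS3BP, the other call, rose by 0.46 (adjusted p = 0.034) and lost the call in 9 of the 19 alternatives (up to 0.211 without control vector replicate 3). Among 18 interferon receptors, STATs and IRFs, 1 was called higher and 0 lower, with a median of 0.066. Of 19 genes that silence introduced DNA through chromatin, such as HDAC2, 0 were called in limma's test, with a median of -0.014.

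The largest falls were in ID genes. The promoter windows of ID1 and ID3 are shown because both genes fell together. Neither window holds any of the motifs searched, including GGCGCC, so no letters are in capitals.
ID1, chr20:31605039-31605338, plus strand: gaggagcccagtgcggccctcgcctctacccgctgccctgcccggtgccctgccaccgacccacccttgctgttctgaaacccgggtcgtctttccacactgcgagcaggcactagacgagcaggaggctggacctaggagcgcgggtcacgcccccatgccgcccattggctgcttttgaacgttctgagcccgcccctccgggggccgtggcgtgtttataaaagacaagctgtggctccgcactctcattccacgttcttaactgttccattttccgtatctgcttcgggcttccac
ID3, chr1:23559452-23559751, minus strand: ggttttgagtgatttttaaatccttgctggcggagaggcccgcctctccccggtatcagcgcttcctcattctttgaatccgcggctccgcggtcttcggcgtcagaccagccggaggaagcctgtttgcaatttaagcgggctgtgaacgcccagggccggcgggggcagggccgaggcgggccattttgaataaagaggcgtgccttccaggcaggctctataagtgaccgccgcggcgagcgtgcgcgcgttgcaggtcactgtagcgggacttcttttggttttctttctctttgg
BMP-responsive elements of these genes are known to lie further upstream, outside such a window.

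ID3 had log2 signals of 11.68, 11.59 and 10.49 in control vector cells and 12.88, 12.88 and 12.78 in untreated cells. The untreated arrays lay close together, while control vector replicate 3 lay well below its 2 companions. ID3 was 3.02-fold lower (log2 difference -1.59 ± 0.26, adjusted p = 0.00137), and without control vector replicate 3 the difference was -1.21 (adjusted p = 0.0116). ID1 had 11.10, 10.90 and 10.14 in control vector cells and 11.73, 12.06 and 12.07 in untreated cells, and it was 2.36-fold lower (-1.24 ± 0.23, adjusted p = 0.00393). Its second probe gave -1.30, and without control vector replicate 3 the difference was -0.95 (adjusted p = 0.0358). With a trended, robust prior variance, which gives genes of uneven replicates a larger variance, the calls of ID3 (adjusted p = 0.183) and ID1 (0.222) ended, while both held in the other 18 alternatives.

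ID2 had 11.91, 11.95 and 11.48 in control vector cells and 12.48, 12.57 and 12.56 in untreated cells, a fall of 0.76 on the log2 scale (SE 0.16, adjusted p = 0.00892), and its second probe gave -0.89. ID2 lost the call when control vector replicate 3 was left out (adjusted p = 0.0828), without both dim arrays of the series (0.0832), with array brightness as a covariate (0.0552) and at a common median (0.0694). ATOH8, a helix-loop-helix factor responsive to BMP, had 7.11, 7.08 and 6.76 in control vector cells and 7.86, 7.79 and 7.94 in untreated cells (-0.88 ± 0.15, adjusted p = 0.00139), and this call held under all 19 alternatives. SMAD6, an inhibitor of BMP receptor signalling that is itself a BMP target, had 9.24, 8.82 and 8.996 in control vector cells and 9.43, 9.83 and 9.61 in untreated cells (-0.60 ± 0.12, adjusted p = 0.00639; 0.055 without untreated replicate 2 and 0.0856 at a common median). All 5 genes lay lower on every control vector array than on any untreated array. The naming rule required this of ID3, ID1, ID2 and ATOH8. For SMAD6 it is no support beyond the call, as the groups lay apart for 339 of the 340 called genes. Over all genes tested, the groups lay apart in either direction for 18.7%.

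The ligand BMP4 differed by 0.34 ± 0.11 (adjusted p = 0.12) and the receptor BMPR1A by -0.37 ± 0.12 (adjusted p = 0.127). The receptor BMPR2 and the signal transducers SMAD1 and SMAD5 differed by -0.02, -0.01 and -0.03. GREM1, a secreted BMP antagonist, passed narrowly (-0.37 ± 0.10, adjusted p = 0.0466) and lost the call in 14 of the 19 alternatives (up to 0.167 without control vector replicate 2). SOSTDC1, a secreted antagonist of BMP and Wnt ligands that was not on the list, had 8.47, 8.71 and 8.45 in control vector cells and 9.61, 9.36 and 9.55 in untreated cells, and it was 1.95-fold lower (-0.96 ± 0.14, adjusted p = 5.68e-04) under all alternatives. Of 19 tested members of the ID and BMP list, 6 were called lower and 0 higher, beside 0.661% and 1.52% of all genes. The list had a median of -0.246 and 3 members above 0. The count of 6 was 3 at a common median and with the trended prior, and 4 without control vector replicate 3 or without untreated replicate 2. Among 9 genes of the related TGF-beta pathway, SMAD3 was the 1 call (0.43, adjusted p = 0.0484), and it ended in 12 of the 19 alternatives (up to 0.235 without control vector replicate 3).

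A few sterol export genes rose, led by ABCA1. Its promoter window is shown because it gave the largest rise of the comparison, and the capitals mark 1 CACGTG, the E-box, which 7.26% of promoter windows hold. No LXR element was among the motifs searched, so the capitals say nothing about whether the window holds one.
ABCA1, chr9:104928106-104928405, minus strand: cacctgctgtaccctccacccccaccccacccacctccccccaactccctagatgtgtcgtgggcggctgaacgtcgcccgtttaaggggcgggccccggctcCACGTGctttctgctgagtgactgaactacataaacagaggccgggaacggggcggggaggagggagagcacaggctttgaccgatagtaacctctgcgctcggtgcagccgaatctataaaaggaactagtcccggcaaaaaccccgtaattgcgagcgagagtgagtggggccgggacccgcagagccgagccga
ABCA1, which loads cholesterol onto lipoproteins, had 8.56, 8.62 and 9.18 in control vector cells and 7.52, 7.43 and 7.46 in untreated cells. It was 2.49-fold higher (1.31 ± 0.17, adjusted p = 1.41e-04), with control vector replicate 3 the highest array, and without that array the difference was 1.13 (adjusted p = 0.00128). ABCG1, a second cholesterol exporter and LXR target, had 9.35, 9.02 and 9.45 in control vector cells and 8.53, 8.39 and 8.47 in untreated cells (0.81 ± 0.12, adjusted p = 3.17e-04). The calls of both genes held under all 19 alternatives, but the other ABCG1 probes above background gave 0.58 and -0.03, so its transcripts were not read alike.

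NPC2, which hands cholesterol out of lysosomes, rose by 0.49 ± 0.10 (adjusted p = 0.00757; 0.561 at a common median). The LXR alpha gene NR1H3 and its targets MYLIP and SCD differed by 0.32, 0.31 and 0.39 without passing (adjusted p = 0.14, 0.11 and 0.15). In all, 3 of 17 tested members of the sterol export and LXR list were called higher (17.6%, against 1.52% of all genes) and 0 lower, with a median of 0.117. Of 25 tested genes of cholesterol synthesis and its regulator SREBP2, 0 were called in limma's test, with a median of -0.055, and the prenyl synthase gene FDPS differed by -0.34 (adjusted p = 0.116).

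FOS, an immediate early transcription factor that is switched on within minutes by growth factors and stress, was low in untreated cells and higher with the control vector. In its promoter window, shown because FOS was one of 4 named genes that differed between the vectors as well, the capitals mark 1 TGACGT, the core of the cAMP response element, and 2 GGCGCC.
FOS, chr14:75278578-75278877, plus strand: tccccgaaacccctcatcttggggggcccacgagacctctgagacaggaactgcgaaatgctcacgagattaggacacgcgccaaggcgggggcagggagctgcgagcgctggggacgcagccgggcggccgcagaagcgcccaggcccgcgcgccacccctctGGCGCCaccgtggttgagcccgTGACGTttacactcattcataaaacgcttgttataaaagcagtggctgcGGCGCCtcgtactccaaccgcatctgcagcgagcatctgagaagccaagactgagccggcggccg
TGACGT was present in 7.98% of all promoter windows. FOS had 7.94, 8.34 and 7.82 in control vector cells and 7.08, 6.92 and 6.77 in untreated cells, 2.15-fold higher (1.11 ± 0.13, adjusted p = 2.57e-05), and this call held under all 19 alternatives. Its relative FOSB rose by 0.43 ± 0.10 (adjusted p = 0.025) and lost the call in 8 of the 19 alternatives (up to 0.113 without untreated replicate 1). EGR1, another early factor, had 8.98, 9.38 and 9.24 in control vector cells and 9.01, 8.66 and 8.56 in untreated cells. The groups overlapped, and EGR1 did not pass (0.45 ± 0.13, adjusted p = 0.0607), but it passed in 4 of the 19 alternatives (lowest adjusted p 0.0279). The other immediate early genes moved in both directions, with IER5 at 0.40 (adjusted p = 0.051), IER3 at -0.36 (0.083), JUN at -0.17 (0.63) and JUNB at 0.05 (0.91). Of 22 tested, 2 were called higher and 0 lower, with a median of 0.012. Over the alternatives, 1 to 4 were called higher and 0 to 1 lower. Of 19 genes that feed back on MAPK signalling, 2 were called lower and 0 higher. SPRY4, an inhibitor of receptor tyrosine kinase signalling, had 9.48, 9.47 and 9.47 in control vector cells and 10.15, 9.84 and 9.98 in untreated cells (-0.51 ± 0.10, adjusted p = 0.0084). The SPRY4 call ended without untreated replicate 1 (0.0612), with probes averaged (0.0718) and at a common median (0.109). The growth factor receptor FGFR3, the other call (-0.68 ± 0.16, adjusted p = 0.03), lost it in 9 of the 19 alternatives (up to 0.208 without control vector replicate 3).

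Genes of the guanylin peptides and some goblet cell genes were higher in control vector cells. GUCA2A, which encodes guanylin, a gut peptide that controls salt and water secretion, had 10.20, 10.19 and 10.18 in control vector cells and 9.11, 9.23 and 9.21 in untreated cells. It was 2.00-fold higher (1.00 ± 0.10, adjusted p = 7.53e-06), with nearly equal values on the 3 control vector arrays. GUCA2B, which encodes the related uroguanylin, had 13.68, 13.67 and 13.46 in control vector cells and 12.77, 12.77 and 12.75 in untreated cells (0.84 ± 0.10, adjusted p = 6.97e-05). FCGBP, a mucus protein, had 10.48, 10.21 and 10.66 in control vector cells and 9.29, 9.38 and 9.67 in untreated cells (1.00 ± 0.14, adjusted p = 3.17e-04), and its second probe gave 0.44. These 3 calls held under all 19 alternatives.

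TFF3, a secreted goblet cell peptide among the strongest signals of the array, had 14.40, 14.37 and 14.31 in control vector cells and 13.67, 13.82 and 13.80 in untreated cells (0.60 ± 0.10, adjusted p = 0.00137; 0.211 at a common median). GUCY2C, the receptor of both guanylin peptides, passed narrowly at 0.39 ± 0.10 (adjusted p = 0.0466) and lost the call in 12 of the 19 alternatives (up to 0.163 without control vector replicate 3). Other goblet cell genes did not pass, with the transcription factor SPDEF at 0.17, the protein folding gene AGR2 at 0.11, CLCA1 at 0.12 and REG4 at -0.28 (adjusted p = 0.49, 0.70, 0.73 and 0.21). Of 15 tested guanylin, goblet and absorptive genes, 5 were called higher (33.3%, against 1.52% of all genes) and 0 lower. Their median was 0.108, and 3 were called at a common median. ATOH1, the factor that commits gut progenitors to secretory fates, was the 1 call among 13 enteroendocrine transcription factors (0.41 ± 0.10, adjusted p = 0.0377), and it was lost in 10 of the 19 alternatives (up to 0.19 without untreated replicate 2).

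Enteroendocrine genes gave 1 call in each direction. GPBAR1, the bile acid receptor through which such cells release incretins, had 8.70, 8.68 and 8.89 in control vector cells and 8.07, 8.34 and 8.10 in untreated cells (0.59 ± 0.11, adjusted p = 0.00442; 0.257 at a common median). SCG2, a granin of secretory vesicles, was lower at -0.43 ± 0.10 (adjusted p = 0.0249) and lost the call in 8 of the 19 alternatives (up to 0.148 without control vector replicate 3). The granin CHGA, the proglucagon gene GCG and the prohormone convertase PCSK1 did not pass, at 0.21, 0.13 and -0.36 (adjusted p = 0.42, 0.65 and 0.096). Of 18 tested members, 1 was called higher and 1 lower, with a median of 0.191. Of 8 gut epithelial transcription factors, 0 were called in limma's test, with a median of -0.065, KLF5 at 0.23 and ELF3 at 0.23.

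Among the falls were 3 genes of xenobiotic metabolism. CYP1B1, a cytochrome P450 induced through the aryl hydrocarbon receptor, had 9.48, 9.94 and 9.07 in control vector cells and 10.55, 10.27 and 10.68 in untreated cells, 2.00-fold lower (-1.003 ± 0.19, adjusted p = 0.00488; 0.134 with the trended, robust prior). NQO1, a quinone reductase under control of the same receptor and of NRF2, had 12.56, 12.82 and 12.31 in control vector cells and 13.26, 13.27 and 13.29 in untreated cells (-0.70 ± 0.12, adjusted p = 0.00137). Its second probe gave -0.67, and the NQO1 call held under all 19 alternatives. ALDH3A1, an aldehyde dehydrogenase, had 8.59, 8.83 and 7.92 in control vector cells and 9.21, 9.43 and 9.41 in untreated cells (-0.90 ± 0.23, adjusted p = 0.0381), and it lost the call in 12 of the 19 alternatives (up to 0.245 without control vector replicate 3). In each of the 3 genes control vector replicate 3 was the lowest array.

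The receptor gene AHR itself differed by -0.01 (adjusted p = 0.99). Of 12 tested members of that list 3 were called lower and 1 higher, beside 0.661% and 1.52% of all genes, with a median of -0.089. The 1 higher was the drug-metabolising CYP3A5 (0.41, adjusted p = 0.0483), lost in 12 of the 19 alternatives (up to 0.171 without untreated replicate 1). TXNRD1, a thioredoxin reductase, passed narrowly (-0.38 ± 0.10, adjusted p = 0.0466) and was lost in 14 of the 19 alternatives (up to 0.222 without control vector replicate 3). Of 23 NRF2 targets and metallothioneins 2 were called lower and 0 higher, TXNRD1 among them, and the list had a median of -0.131 and 6 members above 0, and none of the 23 was called at a common median, without control vector replicate 3 or without untreated replicate 3.

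Several of the largest differences lay outside these groups. BEX2, a small protein encoded on the X chromosome and expressed in neural and endocrine cells, had 9.31, 9.41 and 9.33 in control vector cells and 8.29, 8.30 and 8.10 in untreated cells. It was 2.17-fold higher (1.12 ± 0.10) and had the smallest adjusted p of the genes named, 2.31e-06. SPON1, a secreted matrix protein, had 9.45, 9.70 and 9.90 in control vector cells and 8.56, 8.62 and 8.69 in untreated cells, 2.09-fold higher (1.06 ± 0.14, adjusted p = 1.41e-04). Further rises under all 19 alternatives were those of the rhomboid-like gene RHBDL3 (0.95), FNDC5, the precursor of irisin (0.94), GLT8D2 (0.93), the fatty acid activating enzyme ACSL5 (0.93), the transcription elongation factor TCEA3 (0.87) and the minor spliceosome RNA RNU6ATAC (0.83), which lay above background on 1 of 3 untreated arrays. In all of these, every control vector array lay above every untreated array, which the rule that named them required. The Fanconi anaemia gene FANCA rose by 0.87 at its brightest probe, while its other probe gave -0.11, and averaging the probes ended the call (adjusted p = 0.0564), as did a common median (0.0839).

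Among the falls, CPNE4, a calcium-dependent membrane-binding copine, had 7.49, 7.68 and 7.37 in control vector cells and 8.48, 8.69 and 8.64 in untreated cells, 2.13-fold lower (-1.09 ± 0.11, adjusted p = 7.39e-06). WDR25 had 10.10, 10.33 and 9.89 in control vector cells and 11.18, 11.05 and 11.21 in untreated cells, 2.05-fold lower (-1.04 ± 0.12, adjusted p = 2.70e-05). PRRX2, a homeobox factor of mesenchymal tissue, had 10.47, 10.36 and 10.15 in control vector cells and 11.16, 11.36 and 11.39 in untreated cells (-0.98 ± 0.11, adjusted p = 1.72e-05), and it was the 1 call among 8 mesenchymal transition genes. IGFBP3, a binding protein of insulin-like growth factors, fell by 0.95 on the log2 scale (SE 0.12, adjusted p = 6.97e-05), and its second probe gave -0.69. On 1 of the 3 control vector arrays it did not exceed background. The LIM domain gene CRIP2 (-0.84), BPIFB4 (-0.84, not exceeding background on 2 of the 3 control vector arrays) and CAPRIN2 (-0.70) were also lower. The falls in this paragraph held under all 19 alternatives.

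**Figure D4:**
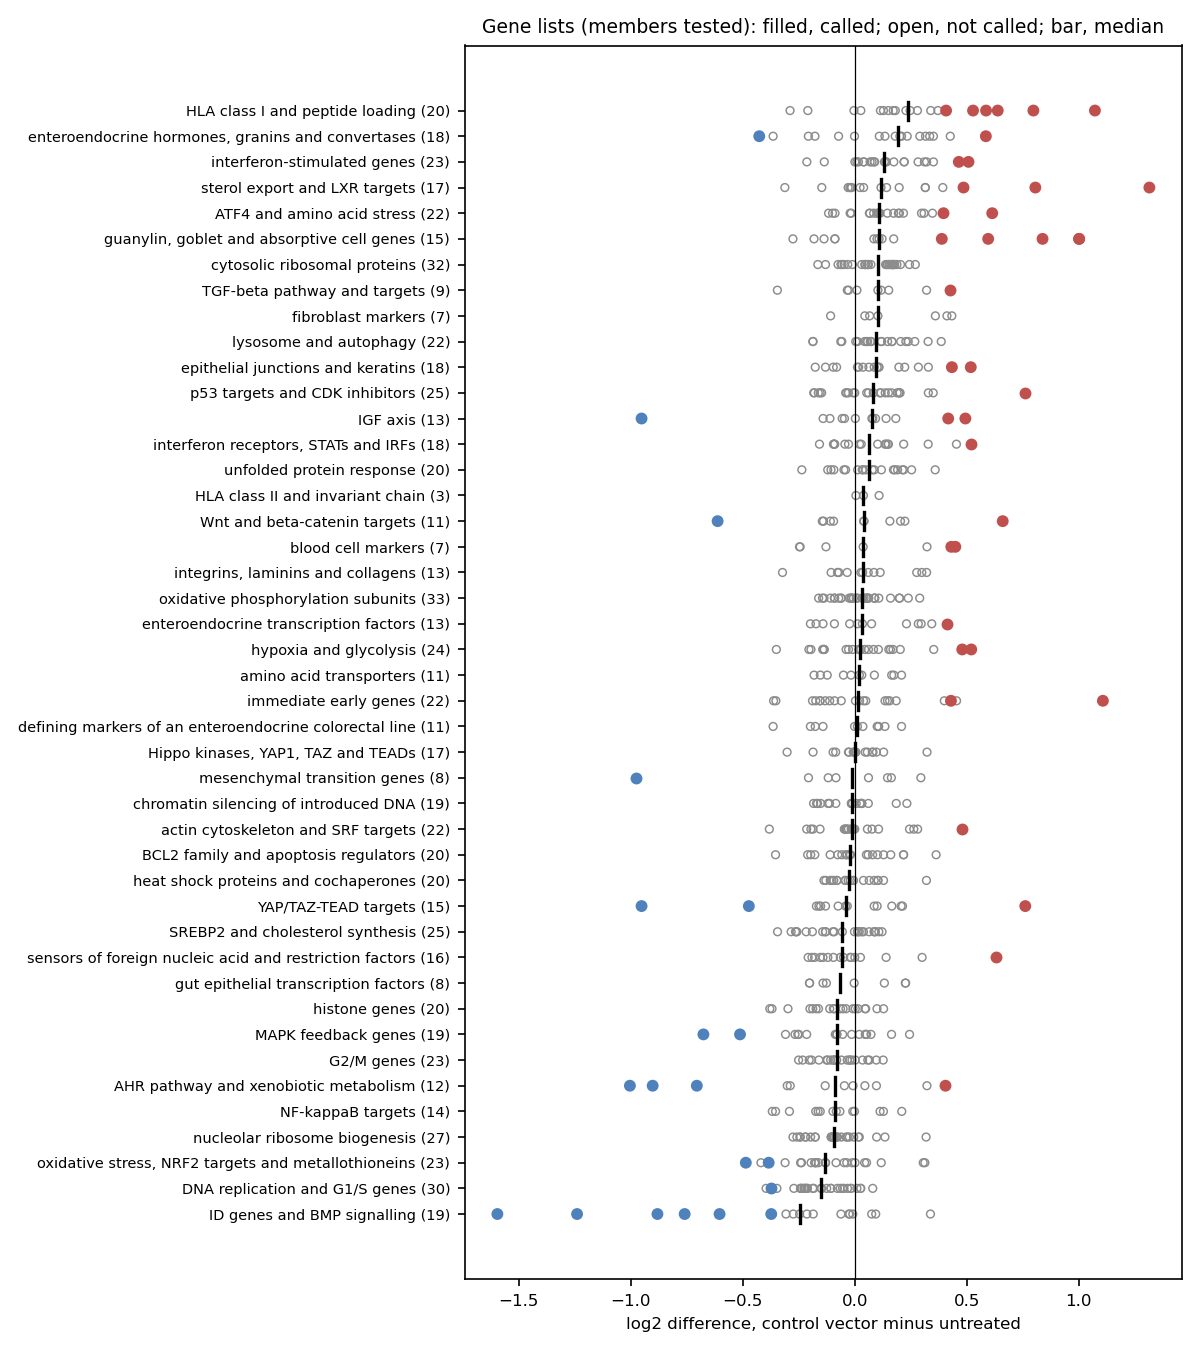
Log2 differences, control vector minus untreated, of the tested members of each gene list (number tested in parentheses), ordered by the list's median, which is the black bar. Filled points are called genes and open points are not called. The class I list lies at the top with a median of 0.238 and the ID and BMP list at the bottom with -0.246. The list labelled nucleolar ribosome biogenesis also holds MYC and MYC targets.

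In each list of growth and division genes 0 or 1 members were called, beside 2.18% over all genes, so these counts are near the overall share. Of 30 tested genes of DNA replication and the G1/S transition, 4 lay above 0 and the median was -0.149, but MCM10, a replication initiation factor, was the only call (-0.38, adjusted p = 0.0469), lost in 15 of the 19 alternatives (up to 0.204 without untreated replicate 2). RRM2 and TYMS, which supply nucleotides, differed by -0.40 and -0.35 (adjusted p = 0.109 and 0.135). Of 23 G2/M genes 0 were called, with a median of -0.081, the spindle factor TPX2 at -0.23 and the checkpoint kinase BUB1B at -0.25. Of 27 genes on the list of nucleolar ribosome biogenesis and MYC targets 0 were called. Their median was -0.091, and 5 members lay above 0, with MYC itself the highest at 0.32. Of 32 cytosolic ribosomal proteins 0 were called, with a median of 0.105 and 24 members above 0, RPL19 at 0.27 and RPLP0 at 0.24. The medians of these 4 lists kept their sign in all 19 alternatives, but their members share arrays and are correlated. Histone genes (20 tested, median -0.078) and oxidative phosphorylation subunits (33 tested, median 0.034) had 0 calls, and the sign of the second median turned in some alternatives, which ranged from -0.061 to 0.035.

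In the lists of stress genes 0 to 2 members were called. The share called was 9.09% for ATF4 and amino acid stress and 8.33% for hypoxia and glycolysis. It was 4% for p53 targets and CDK inhibitors, beside 2.18% over all genes. GADD45A, a growth arrest gene induced by DNA damage and other stress, had 10.29, 10.25 and 10.62 in control vector cells and 9.62, 9.72 and 9.55 in untreated cells (0.76 ± 0.12, adjusted p = 0.00137), held under all 19 alternatives, and was the 1 call among 25 p53 targets and CDK inhibitors. DDIT4, an inhibitor of mTOR complex 1, had 10.14, 10.02 and 10.30 in control vector cells and 9.56, 9.60 and 9.47 in untreated cells (0.61 ± 0.11, adjusted p = 0.00245; 0.196 at a common median). With NUPR1 (0.40, adjusted p = 0.0426, above background on 1 of 3 untreated arrays, lost in 12 of the 19 alternatives and up to 0.196 without control vector replicate 3) it made 2 calls among 22 ATF4 and amino acid stress genes, whose median was 0.11 with 17 above 0. Of 24 hypoxia and glycolysis genes 2 were called higher, both known hypoxia-inducible genes. The vasodilator peptide ADM differed by 0.52 ± 0.11 (adjusted p = 0.0123; 0.0696 without control vector replicate 1, 0.0867 without untreated replicate 1 and 0.466 at a common median). NDRG1 differed by 0.48 ± 0.10 (adjusted p = 0.00957; 0.062 without untreated replicate 3 and 0.45 at a common median). Calls were 0 in limma's test among 20 genes of the unfolded protein response, 20 heat shock genes, 20 BCL2 family and apoptosis genes, 14 NF-kappaB targets and 22 lysosome and autophagy genes, and their medians were 0.064, -0.025, -0.021, -0.09 and 0.095. Before adjustment, 2170 of all 15589 genes had a p under 0.05.

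Adhesion, growth factor and Wnt genes gave a few calls. The share called was 18.2% for Wnt targets, 20% for YAP/TAZ-TEAD targets and 23.1% for the IGF axis. It was 11.1% for junction and keratin genes and 4.55% for actin and SRF genes, beside 2.18% over all genes. CD44, a hyaluronan receptor and Wnt target, had 10.23, 10.78 and 10.38 in control vector cells and 9.66, 9.85 and 9.90 in untreated cells (0.66 ± 0.13, adjusted p = 0.00488; 0.305 at a common median). The Wnt antagonist DKK1 went the other way (-0.61 ± 0.15, adjusted p = 0.0294, lost in 8 of the 19 alternatives and up to 0.193 without control vector replicate 3), and these were the 2 calls among 11 Wnt targets. Of 15 YAP/TAZ-TEAD targets, GADD45A was higher and IGFBP3 and F3, the tissue factor gene, were lower, F3 at -0.47 (adjusted p = 0.0182, lost in 9 of the 19 alternatives and up to 0.125 without control vector replicate 3). The canonical YAP target CCN2 differed by -0.07 (adjusted p = 0.881), and none of 17 Hippo pathway components passed, with a median of 0.001. The IGF axis (13 tested) had IGFBP2 and IRS2 higher and IGFBP3 lower. IGFBP2 at 0.49 and IRS2 at 0.42 (adjusted p = 0.0203 and 0.0351) lost the call in 7 and 9 of the 19 alternatives (up to 0.109 without untreated replicate 1 for IGFBP2 and 0.179 without control vector replicate 3 for IRS2). Junction and keratin genes (18 tested) had 2 calls, the plakoglobin gene JUP at 0.52 and the tight junction gene CGN at 0.43 (adjusted p = 0.0385 and 0.0404), each lost in 10 of the 19 alternatives (up to 0.224 and 0.254 without control vector replicate 3). TAGLN2, an actin-binding protein, was the 1 call among 22 actin and SRF genes (0.48 ± 0.10, adjusted p = 0.0122), lost in 7 of the 19 alternatives (up to 0.0925 without control vector replicate 3). Integrins, laminins and collagens (13 tested) and amino acid transporters (11 tested) had 0 calls, with medians of 0.035 and 0.021.

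Markers of other cell types were measured beside these differences. Of 11 fibroblast markers 7 were tested, with DCN, PDGFRB, THY1 and DPT below background, and none passed. Their mean log2 signal ran from 8.62 to 8.79 in control vector cells and from 8.50 to 8.57 in untreated cells, so it did not overlap, and its part in the results was not tested. LUM differed by 0.41 (adjusted p = 0.0925). PDGFRA was above background on all 3 control vector arrays and on no untreated array, at least 1.2458-fold higher against the background level. Its adjusted p of 0.0552 did not pass, but it passed in 4 of the 19 alternatives (lowest adjusted p 0.0423). Of 14 blood cell markers 7 were tested, and the defining genes PTPRC, CD3D, CD3E and MS4A1 were below background. Of those tested 2 were called higher (28.6%, against 1.52% of all genes), among them CD14 (0.43, adjusted p = 0.0381, lost in 9 of the 19 alternatives and up to 0.184 without untreated replicate 3). The mean log2 signal of the 7 was 8.92 to 9.07 in control vector cells and 8.84 to 9.001 in untreated cells. Of 9 endothelial markers ESAM alone was tested, and it differed by -0.17 (adjusted p = 0.552).

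Values of the arrays labelled YAP mutant vector are set beside those of the other groups for a few genes, and both comparisons share the control vector arrays. As given above, the YAP1 probe showed no raised signal on them, and whether it reads the transcript of the vector is not known here. For ID3 the log2 signals were 11.68, 11.59 and 10.49 in control vector cells, 11.31, 11.80 and 10.32 in cells labelled YAP mutant vector, and 12.88, 12.88 and 12.78 in untreated cells. The lowest array of either vector group was its replicate 3. For ABCA1 they were 8.56, 8.62 and 9.18 in control vector cells, 8.93, 8.38 and 9.33 in cells labelled YAP mutant vector, and 7.52, 7.43 and 7.46 in untreated cells, and replicate 3 was the highest in both vector groups. HLA-B lay at 10.50, 10.47 and 10.40 in cells labelled YAP mutant vector and BEX2 at 9.23, 9.36 and 9.39, above all untreated arrays. Between the vectors HLA-B differed by 0.11 ± 0.10 (adjusted p = 0.928), BEX2 by -0.02 ± 0.10 (0.991), ABCA1 by 0.09 ± 0.17 (0.972) and ID3 by -0.11 ± 0.26 (0.979). These p-values do not show that the vectors act alike.

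Of 105 genes named by rule, 4 were called between cells labelled YAP mutant vector and control vector cells. Over all genes, 53 of 15589 (0.34%) were called there. The rule used values of the control vector arrays, which also enter this comparison, so the 4 cannot be weighed against the 0.34%. FOS had 7.15, 7.39 and 7.18 in cells labelled YAP mutant vector and 7.94, 8.34 and 7.82 in control vector cells (-0.79 ± 0.13, adjusted p = 0.00243), so that it lay between the control vector and the untreated arrays. GUCA2A had 10.61, 10.76 and 10.93 in cells labelled YAP mutant vector and 10.20, 10.19 and 10.18 in control vector cells (0.58 ± 0.10, adjusted p = 0.00748). GPBAR1 had 9.13, 9.25 and 9.41 in cells labelled YAP mutant vector and 8.70, 8.68 and 8.89 in control vector cells (0.51 ± 0.11, adjusted p = 0.0368). CGN, the tight junction gene, had 9.54, 9.63 and 9.59 in cells labelled YAP mutant vector and 8.52, 8.43 and 8.86 in control vector cells (0.98 ± 0.11, adjusted p = 3.11e-05). The last 3 genes were thus higher in cells labelled YAP mutant vector than in control vector cells, and higher in control vector cells than in untreated cells. The number called was 1 at a common median, 7 without background correction or with the trended, robust prior, and 6 with the replicate number as a block.

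The median log2 difference of the genes on each of 23 chromosomes lay between -0.0224 and 0.026.

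**Figure D5:**
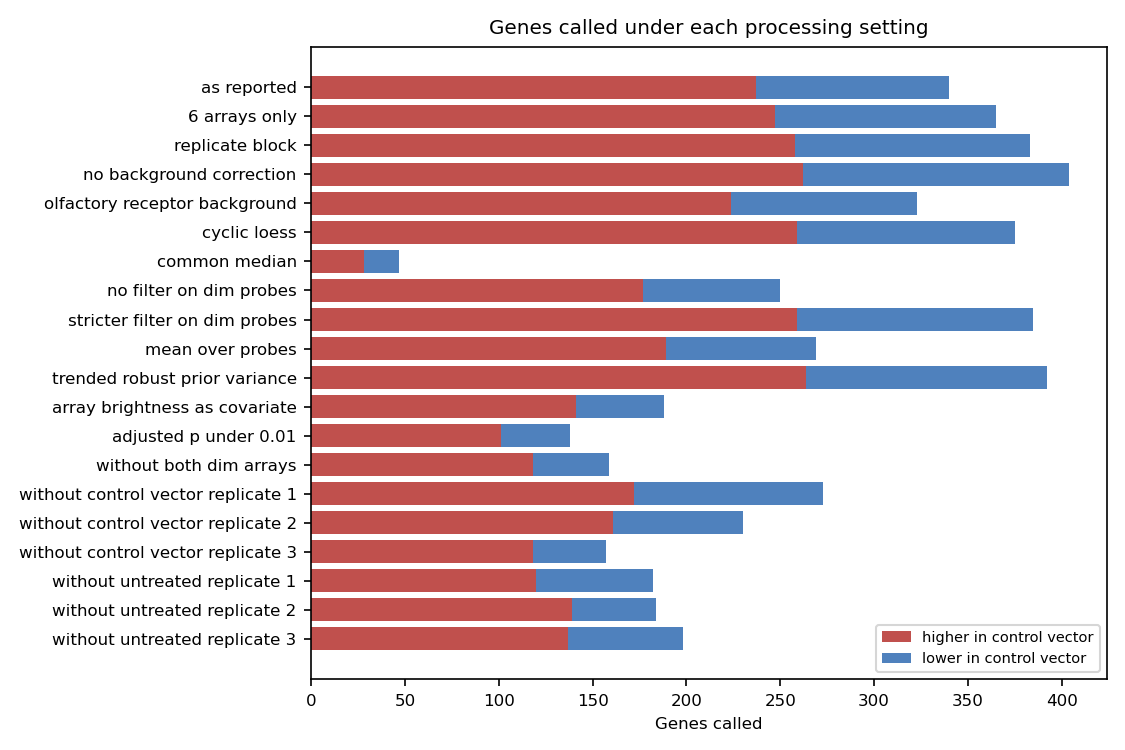
Number of genes called as higher (red) and lower (blue) in control vector cells, as reported and under 19 alternatives, with bars starting at 0. The count is lowest at a common median, with 47 genes, and highest without background correction, with 404, and higher genes outnumber lower genes in every bar.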

How the data were processed

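Per the labels, total RNA of 9 samples was amplified to biotin-labelled cRNA and hybridised to Illumina bead arrays. Per the submitters' processing notes the authors used BeadStudio, whose version is not given in the sources used here. The deposited table lists an intensity for each of 47230 probes on each array, without detection p-values and neither background-corrected nor normalized. A second deposited table of log2 values differed by at most 0.005 from quantile-normalized log2 intensities and was used for that check only. 0 columns were left out, and 0 pairs of arrays held identical values.

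Intensities were background corrected with normexp (offset 50), put on the log2 scale and quantile normalized (limma 3.58.1, R 4.3.3). As the table has no detection p, the planned filter on it was replaced. A probe was kept if, on at least 3 of 9 arrays, its log2 signal exceeded the array's mode by more than 1.645 SD, with the SD taken below the mode, which kept 20218 probes. Of 464 olfactory receptor probes, 5.4% to 6.7% lay above that level, depending on the array. Symbols were updated with RefSeq (GRCh38.p14): 27036 probes had a current one, 4626 an older one that was replaced and 12244 the file's own name. The 3270 probes without a name and 54 with a date as name entered under their probe ID. The brightest probe stood for its gene, which gave 15589 genes.

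A single linear model of the 3 groups over all 9 arrays had 6 residual and 16.2 prior degrees of freedom. Errors beside log2 differences are its standard errors, tests are 2-sided, and p-values were adjusted over all genes by Benjamini-Hochberg. A gene was called at an adjusted p under 0.05. The rule named the 15 largest rises and falls among called genes whose groups did not overlap, up to 4 called members per list or 2 where none was called, and ABCA1, HLA-B, ID1, ID3, FOS and YAP1. A few genes named by this rule are counted but not reported by name. A further 25 genes, among them HLA-C, HLA-E, TAP1, B2M, PSMB8, PSMB9, EGR1, GREM1, BMP4, BMPR1A, GUCY2C, RRM2, TYMS and the genes of the closing section, and further members given as examples of their list were chosen after their values were seen. The members and the 45 lists (1005 genes) were chosen with earlier results of these data known, and lists are described by counts and medians without a test. The steps were tested on simulated data. The alternatives were 19 in number. The 7 promoter windows are from RefSeq. Figures were drawn with matplotlib.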

Additional observations from a re-analysis of the deposited data

How the results depend on the processing

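The count of 340 genes called ranged from 157 to 273 when each array was left out in turn, with 118 to 172 higher and 39 to 101 lower. The count at 2-fold, 12, ranged from 8 to 14 in the same way. At a common median 47 genes passed (28 higher, 19 lower), with array brightness as a covariate 188 (141 higher, 47 lower), at an adjusted p under 0.01 138 (101 higher, 37 lower), and without both dim arrays, an alternative chosen after seeing the data, 159 (118 higher, 41 lower). Without background correction 404 genes passed, of which 6 reached 2-fold. The named genes called between cells labelled YAP mutant vector and control vector cells, 4 as reported, were 1 at a common median, 7 without background correction, 7 with the trended, robust prior, 6 with the replicate number as a block, and 3 to 4 with an array left out. Among the 130 single genes followed, the sign turned for HLA-DRA alone, which differed by 0.04 as reported, -0.0195 at a common median, -0.1054 with probes averaged and between -1e-04 (without control vector replicate 3) and 0.0879 with an array left out. The median of 23 of the 45 lists changed sign in at least 1 alternative. Of 67 called named genes, 27 kept the call in all 19 alternatives and 39 in the 6 that left out an array. Counting each of the 130 genes under each alternative, a call was lost 310 times and gained 20 times. Over all genes, deviations from the group mean of equal replicate numbers correlated at -0.198, -0.043 and -0.049 between control vector and untreated arrays. Between arrays labelled YAP mutant vector and control vector arrays these correlations were -0.036, 0.093 and 0.081. They were 0.164, 0.013 and 0.0775 between arrays labelled YAP mutant vector and untreated arrays. Unequal numbers reached 0.200, for control vector replicate 1 and untreated replicate 2. Numbers were not taken to pair arrays, although replicate 3 of both vector groups was lowest for ID3 and ID1 and highest for ABCA1. With the replicate number as a block 383 genes were called, 328 of them among the 340. The cause of these changes was not tested. Signal limits the rest: 5 called genes were above background on no untreated array and 3 on no control vector array, and genes under the background level were not analysed here.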

Other observations

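Some called genes outside the groups above were chosen after their values were seen and stand as single genes. TXNIP, a thioredoxin inhibitor that rises with glucose, had log2 signals of 11.52, 11.81 and 11.49 in control vector cells and 10.90, 11.04 and 10.92 in untreated cells (0.65 ± 0.11, adjusted p = 0.00139; 0.237 at a common median). TSC22D3, a glucocorticoid-induced leucine zipper gene, had 8.42, 8.32 and 8.56 in control vector cells and 7.65, 7.77 and 7.76 in untreated cells (0.71 ± 0.10, adjusted p = 4.73e-04), and this call held under all 19 alternatives, though its other probes gave 0.11 and 0.54. KLHL24, a ubiquitin ligase adaptor, rose by 0.72 ± 0.13 (adjusted p = 0.00314; 0.118 at a common median). HEPACAM2, an adhesion molecule of the immunoglobulin family, had 10.99, 11.32 and 11.26 in control vector cells and 10.45, 10.26 and 10.43 in untreated cells (0.81 ± 0.11, adjusted p = 1.41e-04), its second probe gave 0.71, and the call held under all 19 alternatives. FFAR2, a receptor of short-chain fatty acids on enteroendocrine cells, rose by 0.66 ± 0.13 (adjusted p = 0.00476; 0.0861 at a common median). LFNG, which modifies Notch receptors with sugars, rose by 0.75 ± 0.14 (adjusted p = 0.00516) and the Notch ligand family member DLL3 by 0.53 ± 0.10 (0.00612). Both calls ended at a common median (0.0674 for LFNG and 0.434 for DLL3) and with probes averaged (0.0514 and 0.113). PTGS2, the inducible cyclooxygenase, had 6.99, 7.66 and 6.89 in control vector cells and 7.83, 7.89 and 7.87 in untreated cells (-0.68 ± 0.14, adjusted p = 0.0089). Its call ended without control vector replicate 1 (0.0545), without control vector replicate 3 (0.0804), without both dim arrays (0.0803), with probes averaged (0.0748) and at a common median (0.0856). The ephrin ligand EFNA1 rose by 0.70 ± 0.11 (adjusted p = 0.00129; 0.101 at a common median), and its second probe gave 0.49.

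Some called genes were neighbours on a chromosome in RefSeq. On chromosome X, between ARMCX1 and TSC22D3, 32 genes were tested, 4 were called higher and 0 lower, 29 lay above 0, and the median was 0.146, a stretch chosen after its values were seen. BEX2 lies within it, and ARMCX1 rose by 0.53 ± 0.11 (adjusted p = 0.00728; 0.361 at a common median). On chromosome 6, the stretch from HLA-F to PSMB9 held 85 tested genes, 8 called higher and 0 lower, with a median of -0.038 and 36 above 0. Over all genes 1.52% were called higher and 0.661% lower. Class I genes already described above lie within the chromosome 6 stretch. HCP5, a long RNA gene of that region, had 8.94, 8.91 and 8.84 in control vector cells and 8.20, 8.16 and 8.21 in untreated cells (0.70 ± 0.09, adjusted p = 1.66e-04; 0.0694 at a common median).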
